A study of Mus musculus with 32 samples.

Results

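The complement and coagulation genes are 43 genes that encode plasma proteins of the complement cascade, the clotting cascade, clot lysis and their inhibitors. They were chosen by gene symbol, and all 43 were among the 27179 genes of the table. All 43 also passed the filter on low levels, under which 14864 genes were tested.

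RNA from mouse liver, kidney, heart and brain was sheared by ultrasound for 20 min and pulled down with an antibody against m6A (methylated adenosine in RNA) before total RNA sequencing with ribosomal depletion. Each organ was represented by formalin-fixed, paraffin-embedded (FFPE) tissue, fixed in 10% formalin, and by flash-frozen tissue. Of 32 labelled samples, 16 are m6A pulldowns and 16 are inputs, and each of their 16 groups has 2 runs. Every m6A group has a single column in the table, giving 8 libraries called FFPE liver, frozen liver, FFPE kidney, frozen kidney, FFPE heart, frozen heart, FFPE brain and frozen brain, so no group had a replicate. No source used here says if the column of a group was made from 1 of its runs or from both. Strain, sex, age and any pooling of the mice are not given in the sources used here, and no genetic change or drug is named for any group. No input value was used, so abundance and methylation of a transcript cannot be told apart in the levels that follow. In a whole organ, fewer cells of a type and less RNA per cell cannot be told apart either.

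Complement is a chain of proteases that tags and perforates microbes. The classical route starts when C1q binds antibody and its proteases cut C4 and C2, the lectin route starts when mannose-binding lectins bind sugars, and the alternative route amplifies through factors B and D. All routes cut C3 and then C5, and C5b assembles with C6, C7, C8 and C9 into a pore. Clotting ends with thrombin cutting fibrinogen to fibrin, and plasmin dissolves the clot. Hepatocytes are the known source of most of these proteins, while C1q is made by macrophages and microglia.

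Recovered gene counts summed to 9603050 in the smallest library (FFPE brain) and 21523379 in the largest (frozen brain), and ribosomal transcripts took 50.4 to 79.7% of them. All 15 hepatocyte markers were called higher in liver, but both heart and both kidney libraries also held neuron transcripts. All 9 neuron markers were detected in each of these libraries. They summed to 32.4 CPM in FFPE heart and 65.3 in frozen heart, and 7 were lower and 1 higher in FFPE heart by their counting intervals. In FFPE and frozen kidney they summed to 61.7 and 34.4 CPM, most of it from Snhg11 (1152 and 696 counts). Xist, the RNA of the inactive X chromosome, had 2693 to 6685 counts in the 4 FFPE libraries and 5 to 26 in the 4 frozen libraries, and 4 Y-linked genes were detected in all 8. The Y-linked genes summed to 24.9, 23.0, 25.6 and 24.3 CPM in FFPE liver, kidney, heart and brain. Frozen liver, kidney, heart and brain had 54.4, 39.8, 61.6 and 45.3 CPM. Whether the FFPE and frozen tissue came from comparable mice is not given, so preservation and the mice cannot be told apart. Levels are log2 CPM on the authors' scaled library size, with 0.5 counts added. They compare a gene between libraries and not one gene with another, since transcript lengths were not given.

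The 43 genes together took 2.50% of the counts outside ribosomal genes in FFPE liver (95% Wilson interval 2.49 to 2.52%) and 2.53% in frozen liver (2.52 to 2.55%). In kidney they took 0.0590% in the FFPE and 0.0889% in the frozen library, in heart 0.0242 and 0.0384%, and in brain 0.0101 and 0.0165%. Counts exceeded 3 for 42 of the 43 genes in FFPE liver and 43 in frozen liver. The numbers were 28 and 40 in FFPE and frozen kidney, 15 and 31 in FFPE and frozen heart, and 12 and 23 in FFPE and frozen brain. No molecular identifiers are named for these reads, which may be copies of one molecule, so every interval given here covers counting error only.

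**Figure D1:**
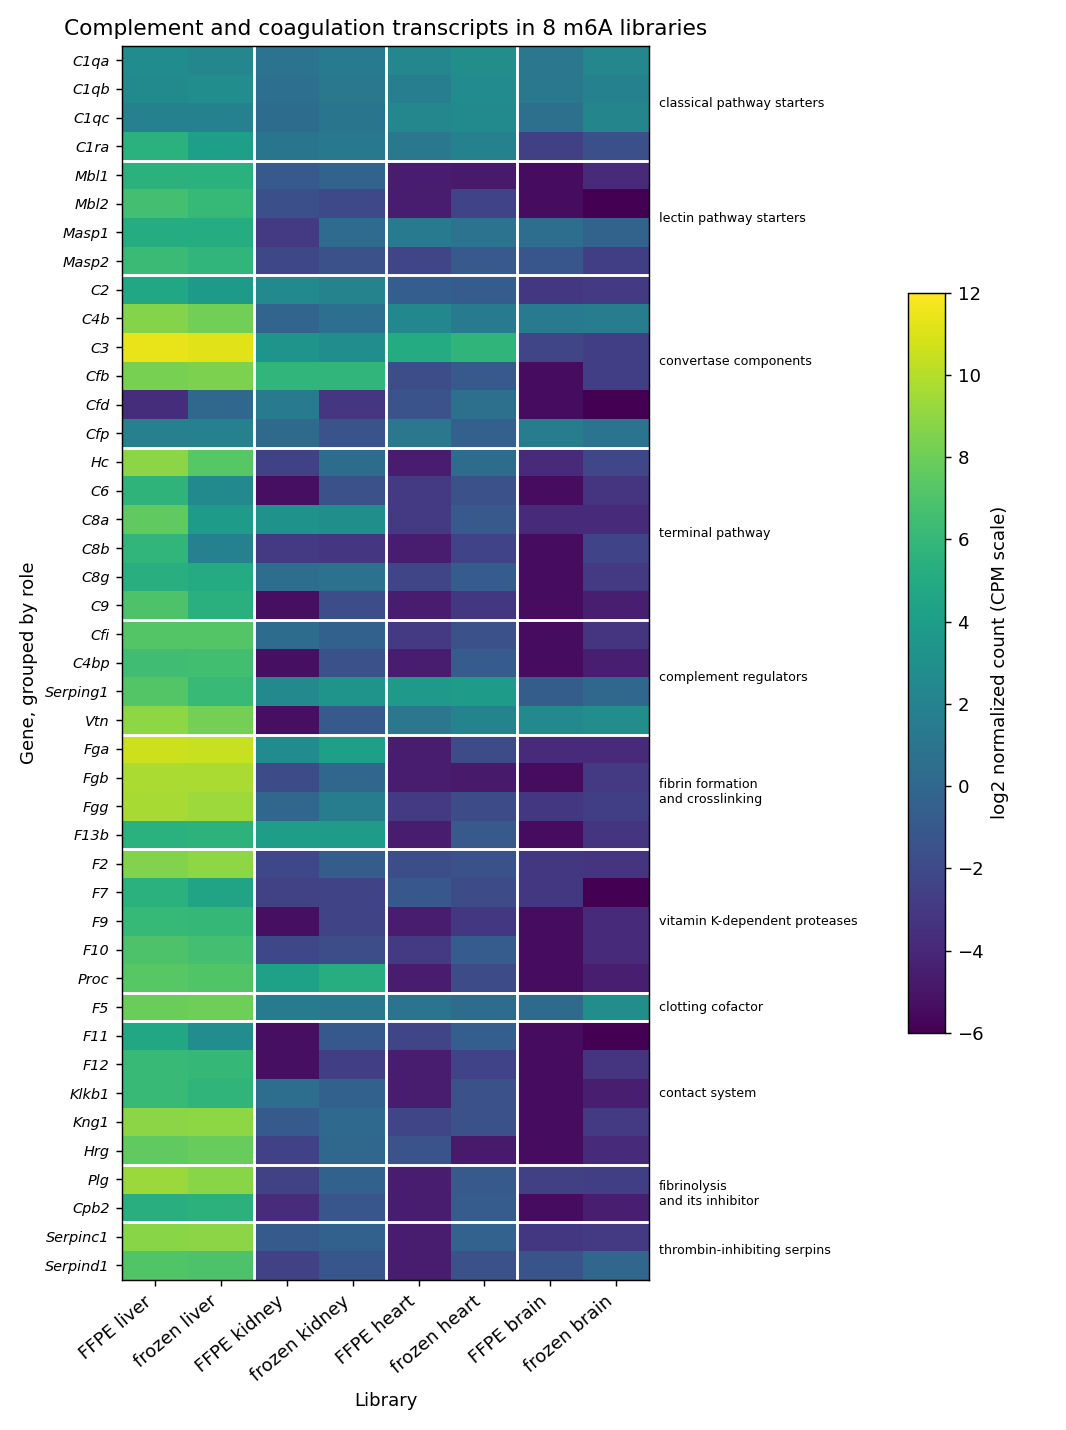
Log2 level (colour, log2 normalized count) of the 43 genes (rows, grouped by role) in the 8 libraries (columns, FFPE left of frozen within each organ). The 2 liver columns are bright in most rows, with C1qa, C1qb, C1qc, Cfd and Cfp as the exceptions in both. C6, C8b and F11 are also dim in frozen liver (2.62, 1.94 and 2.85). Kidney, heart and brain each keep a few brighter rows.

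Set against the mean of brain, heart and kidney, 40 of the 43 genes were called higher in liver (limma, adjusted p under 0.05) and 0 lower. Over all genes tested, 20.1% were called higher and 27.2% lower. The median difference of the 43 genes was 8.34 on the log2 scale, against -0.18 over all genes tested. In this and the later comparisons of organs, the size of a fitted difference depends on the counts added where a library had 0 counts. No floor was applied to the liver differences, so their order by size may depend on that setting too. The 3 genes not called were C1qa, C1qc and Cfd. The filter asks for a log2 level above 0 in at least 2 libraries, and 23 of the 43 genes passed it only with the liver libraries included, 18 of them with no other library above 0. These 23 entered the test through the organ where they are high, so the count and the median describe the genes and are no support for a difference. Of the 20 that pass without liver, 17 were called higher. Both liver libraries lay above all 6 others for 39 genes, with levels under 3 counts raised to 3 counts, as they did for 15.0% of all genes tested. For 26 of the 39 the gap between the lower liver library and the highest other library exceeded 5 on the log2 scale. The share of all genes tested with such a gap was not computed, so the 26 only describe the genes. Each organ is 2 libraries, FFPE and frozen, and the fit over 8 libraries leaves 3 residual degrees of freedom, so its p-values rest on how alike the 2 preservations were, with no spread between animals.

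Fgb, which encodes the beta chain of fibrinogen, had the largest difference of the 43 genes. It had log2 levels of 9.68 in FFPE liver and 9.71 in frozen liver, against -1.83 and -0.03 in FFPE and frozen kidney, 0 counts in both heart libraries, and 0 and 4 counts in FFPE and frozen brain. Its difference was 12.94 ± 0.65 (SE), a size that depends on the counts added in the libraries with 0 counts. No library outside liver had Fgb above a log2 level of 0, so Fgb entered the test through liver and its p-value is not given. Fga, the alpha chain, reached 10.65 and 10.51 in FFPE and frozen liver (difference 11.78 ± 0.53), and Fgg, the gamma chain, 9.65 and 9.33 (difference 11.003 ± 0.44). F13b, the carrier subunit of the fibrin-crosslinking factor XIII, differed by less (6.61 ± 0.72), with levels of 5.47 and 5.65 in FFPE and frozen liver beside 4.10 and 3.86 in FFPE and frozen kidney. The 3 fibrinogen genes lie side by side on chromosome 3 (GRCm38.p6, Fgg at chr3:83007724-83015056, Fga at chr3:83026153-83033627 and Fgb at chr3:83042246-83049863). Their promoter windows, 250 bases before to 50 after the RefSeq start site, are shown because the 3 genes were high together in liver and parted in kidney. Capitals mark the HNF1 motif GTTAAT and the C/EBP core TTGCNNAA, both read on either strand, and the windows are chr3:83025903-83026202 on the plus strand for Fga, chr3:83049814-83050113 on the minus strand for Fgb and chr3:83007474-83007773 on the plus strand for Fgg.
Fga: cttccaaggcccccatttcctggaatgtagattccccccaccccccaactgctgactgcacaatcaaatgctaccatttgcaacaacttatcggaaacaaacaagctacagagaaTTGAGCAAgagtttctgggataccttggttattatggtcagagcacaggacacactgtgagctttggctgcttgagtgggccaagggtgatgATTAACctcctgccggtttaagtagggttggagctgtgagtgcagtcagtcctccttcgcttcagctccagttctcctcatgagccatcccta
Fgb: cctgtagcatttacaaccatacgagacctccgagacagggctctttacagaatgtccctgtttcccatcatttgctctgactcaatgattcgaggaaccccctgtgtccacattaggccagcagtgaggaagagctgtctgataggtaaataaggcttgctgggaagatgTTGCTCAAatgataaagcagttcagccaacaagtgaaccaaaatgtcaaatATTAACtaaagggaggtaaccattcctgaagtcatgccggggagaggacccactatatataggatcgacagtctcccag
Fgg: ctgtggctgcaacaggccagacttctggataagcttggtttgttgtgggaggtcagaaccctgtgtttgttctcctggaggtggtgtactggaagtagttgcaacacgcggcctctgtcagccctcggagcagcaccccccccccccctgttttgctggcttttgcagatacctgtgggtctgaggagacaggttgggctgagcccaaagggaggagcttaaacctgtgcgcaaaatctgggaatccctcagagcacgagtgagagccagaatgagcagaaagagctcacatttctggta
HNF1 and C/EBP are factors known to act at hepatocyte promoters. The HNF1 motif began at base -43 from the start in Fga and -29 in Fgb, the C/EBP core at -135 in Fga and -80 in Fgb, and the Fgg window held neither. Of the 43 genes, 33 matched a window in the RefSeq table (GRCm38.p6), and 11 of the 33 (33.3%) held GTTAAT, against 8.24% of 27025 genes. TTGCNNAA was in 11 of 33 (33.3%), against 12.2% of all genes. The other motifs searched were TGTTTAC for FOXA (2 of 33, against 4.05%), CAAAGTC for HNF4 (1 of 33, against 4.995%), GAGGAA for PU.1 (6 of 33, against 31.25%) and TATAAA, the TATA box (5 of 33, against 15.7%). These shares are a description of letters and were not tested.

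All 5 vitamin K-dependent proteases were called higher in liver. F2, F7, F9 and F10 passed the filter only with the liver libraries included, so their calls are no support for a difference. F2, which encodes prothrombin, had 8.62 and 8.93 in FFPE and frozen liver and no level above -0.70 elsewhere (difference 10.85 ± 0.46). It too entered the test through liver, so its p-value is not given. F9 (factor IX) differed by 10.11, F10 (factor X) by 9.60, Proc (protein C, which inactivates factor V) by 8.34 and F7 (factor VII) by 7.83. F2, F7, F9 and F10 had at most 13 counts in any library outside liver, whereas Proc had 389 and 797 counts in FFPE and frozen kidney. F5, the cofactor of factor X, had 7.93 and 8.05 in FFPE and frozen liver and was also measured in every other library, between 0.25 in FFPE brain and 2.92 in frozen brain (difference 6.81 ± 0.54, adjusted p = 2.23e-05).

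Contact and lysis genes followed. All genes named in this paragraph passed the filter only with the liver libraries included, so their differences only describe them. Kng1, the precursor of bradykinin, differed by 11.07, Hrg (histidine-rich glycoprotein) by 10.66, F12 (factor XII) by 10.03, Klkb1 (plasma kallikrein) by 8.59 and F11 (factor XI) by 7.26. Plg, which encodes plasminogen, had 9.32 and 8.78 in FFPE and frozen liver and at most -0.41 elsewhere (difference 11.33 ± 0.76). Cpb2, the carboxypeptidase that protects fibrin from lysis, differed by 8.78. The thrombin inhibitors Serpinc1 (antithrombin) and Serpind1 (heparin cofactor II) differed by 10.89 and 8.90.

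Of the complement genes, those that start the lectin route, complete the pore or regulate the cascade were all called higher in liver. Over all genes tested, 20.1% were called higher. Mbl1, Mbl2, Masp2, C6, C8b, C9, C4bp and Cfi passed the filter only with the liver libraries included. Their calls describe these genes and are no support for a difference. Mbl2 and Mbl1, the mannose-binding lectins, differed by 10.02 and 8.79, and their proteases Masp2 and Masp1 by 7.82 and 5.19. Among the pore genes, C9 differed by 10.32, Hc (complement C5) by 10.15, C6 by 7.496, C8b by 7.38, C8g by 6.91 and C8a by 6.63. C9 had 0 counts in FFPE kidney, FFPE heart and FFPE brain, so the size of its difference depends on the counts added. With levels under 3 counts raised to 3 counts, its lower liver library lay 7.19 above the highest other library. Without the FFPE liver library the C8b difference fell to 4.57, and no p-value is given because C8b entered the test through liver. The regulators C4bp, Cfi (factor I), Vtn (vitronectin) and Serping1 (C1 inhibitor) differed by 10.22, 9.39, 8.17 and 4.56. C3, the protein on which all routes converge, had 11.43 and 11.20 in FFPE and frozen liver (difference 9.30 ± 0.23, adjusted p = 1.66e-07). Cfb (factor B), C4b (C4) and C2 differed by 8.24, 7.22 and 4.79. C4b and C4a, C1ra and C1rb, and Kng1 and Kng2 are near-copies whose reads the counting may have divided between them. C8a, C8g, F2, Masp1, Masp2 and Serpind1 overlap another coding gene in the annotation, and the strand setting of the counting is not given, so their low counts outside liver are uncertain.

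The genes that separated liver least, C1qa, C1qb, C1qc, Cfp and Cfd, are known products of macrophages or fat. C1qa, a C1q chain, had 2.75 and 2.36 in FFPE and frozen liver, 0.86 and 1.37 in kidney, 2.35 and 2.88 in heart and 1.11 and 2.36 in brain, so the organs overlapped. The differences were 0.73 ± 0.34 for C1qa (adjusted p = 0.111) and 0.37 ± 0.37 for C1qc (adjusted p = 0.43). C1qb was called (1.14 ± 0.28, adjusted p = 0.0101), but the call was lost without FFPE liver (0.90, adjusted p = 0.103) and the difference was -0.065 when libraries were scaled by total gene counts, a scaling that moved the median of all genes to -1.38. Cfp, which encodes properdin of the alternative route, was called with a small difference (1.55 ± 0.47, adjusted p = 0.0255), and its call was lost without frozen liver (0.85), FFPE brain (1.51) or frozen kidney (1.42). C1ra, a C1 protease gene, separated liver more, with 5.52 and 4.14 in FFPE and frozen liver (difference 4.61 ± 0.48). Cfd, the protease factor D or adipsin, had 0 and 10 counts in FFPE and frozen liver and was not called (0.53 ± 1.46, adjusted p = 0.788).

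Of the other complement genes, 33 in the list, 25 were tested and 17 were called higher and 2 lower in liver. Over all genes tested, 20.1% were called higher and 27.2% lower. Among the higher ones were Cfhr2, a relative of factor H (10.43), and Cpn2, a subunit of carboxypeptidase N (10.24). Of 35 other clotting and lysis genes, 27 were tested and 13 were called higher and 7 lower. Proz (protein Z, 9.33), Fgl1 (a fibrinogen-like protein, 9.22) and Serpina10 (the protein Z-dependent inhibitor, 8.37) were called higher. Cfhr2, Cpn2, Proz, Fgl1 and Serpina10 passed the filter only with the liver libraries included, so their calls are no support for a difference. How many of the other called genes did so was not counted. Plat, the tissue plasminogen activator, was lower in liver (-4.43 ± 0.82), as were F13a1, the catalytic factor XIII subunit (-3.22), and Serpine2 (protease nexin, -3.85).

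Against the mean of brain and heart, 16 of the 43 genes were called higher (19.4% of all genes tested) and 5 lower (19.6%). Their median difference was 1.30, against -0.01 over all genes tested. The kidney, heart and brain comparisons draw on the same 6 libraries and are not independent of each other. Without the FFPE kidney library 12 of the 43 genes were called in all. Under total-count scaling the calls in kidney were 19 higher and 3 lower.

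Proc had 4.32 and 5.19 in FFPE and frozen kidney, against -4.54 and -1.89 in FFPE and frozen heart and -5.43 and -4.51 in FFPE and frozen brain. Its difference of 8.85 ± 0.58 (adjusted p = 1.45e-05) was the largest of the 43. Cfb followed with 1099 and 1253 counts in FFPE and frozen kidney, against 3 and 6 in heart and 0 and 5 in brain (difference 8.53 ± 0.53). F13b had 333 and 317 counts in FFPE and frozen kidney and at most 6 in heart and brain (difference 7.54 ± 0.77). For these 3 genes both kidney libraries lay well above all 4 heart and brain libraries. C2 differed by 4.15, Klkb1 by 4.05, Mbl1 by 4.04, Cfi by 3.26, Mbl2 by 2.82, Kng1 by 2.66, C3 by 1.57 and Serping1 by 1.16. C3 and Serping1 were nonetheless lower in both kidney libraries than in both heart libraries, so their calls rest on the low brain levels. C3 had 3.30 and 2.82 in FFPE and frozen kidney, against 5.09 and 5.77 in FFPE and frozen heart and -2.26 and -2.64 in FFPE and frozen brain. Serping1 had 2.49 and 3.33 in FFPE and frozen kidney, against 3.67 and 3.91 in FFPE and frozen heart and -0.67 and 0.05 in FFPE and frozen brain. F2, F7, F9 and F10, the other vitamin K-dependent genes, were not called in kidney (0.43 to 1.30), and neither were Plg, Cpb2 or the thrombin inhibitors.

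Fibrinogen chains in kidney did not keep the proportions they had in liver. Fga had 123 and 395 counts in FFPE and frozen kidney, Fgg 18 and 65, and Fgb 5 and 21. For each count of Fgb there were 24.6 and 18.8 counts of Fga in FFPE and frozen kidney, against 1.95 and 1.74 in FFPE and frozen liver. The fitted differences were 6.93 ± 0.56 for Fga, 3.47 ± 0.69 for Fgb and 3.40 ± 0.46 for Fgg. Of 15 hepatocyte markers 9 were called higher and 1 lower in kidney, with summed levels of 219 and 358.5 CPM in FFPE and frozen kidney against 14.8 and 20.8 in heart and 83.9 and 445.2 in brain, where Ttr made up most of the frozen value. Their part in the kidney levels was not tested. Alb, the albumin gene, had 48 and 300 counts in FFPE and frozen kidney. For each count of Alb there were 2.56 and 1.32 counts of Fga in FFPE and frozen kidney, against 0.104 and 0.0853 in FFPE and frozen liver.

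C8a and C8b, neighbours on chromosome 4 that encode the alpha and beta chains of the pore protein C8, parted in kidney. C8a had 180 and 173 counts in FFPE and frozen kidney (difference from brain and heart 5.99 ± 0.94, adjusted p = 0.00129), while C8b had 2 and 2 counts (0.64 ± 1.35, not called). In liver C8a had 1213 and 149 counts in the FFPE and frozen library and C8b 370 and 38, which is 3.28 and 3.92 counts of C8a for each of C8b. C8g, the gamma chain encoded elsewhere, had 27 and 35 counts in FFPE and frozen kidney (3.44 ± 0.68). The C8a locus (chr4:104815679-104876487) overlaps Fyb2 in the annotation, which had 18 and 34 counts in FFPE and frozen kidney and 36 and 76 in FFPE and frozen liver. Their windows are shown because the neighbours differed in kidney, with the same marking, at chr4:104876349-104876648 on the minus strand for C8a and chr4:104766067-104766366 on the plus strand for C8b.
C8a: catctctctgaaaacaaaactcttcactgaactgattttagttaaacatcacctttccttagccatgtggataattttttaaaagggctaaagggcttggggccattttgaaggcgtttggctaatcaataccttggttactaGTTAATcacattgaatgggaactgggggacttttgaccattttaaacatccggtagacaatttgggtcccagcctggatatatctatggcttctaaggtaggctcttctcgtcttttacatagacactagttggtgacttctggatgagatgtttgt
C8b: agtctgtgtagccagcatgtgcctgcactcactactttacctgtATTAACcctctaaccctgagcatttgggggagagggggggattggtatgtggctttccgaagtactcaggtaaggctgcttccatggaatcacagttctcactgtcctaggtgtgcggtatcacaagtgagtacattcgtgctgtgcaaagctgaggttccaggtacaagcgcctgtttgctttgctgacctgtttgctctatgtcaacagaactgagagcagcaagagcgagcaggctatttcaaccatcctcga
Both windows held the HNF1 motif, at base -107 in C8a and -206 in C8b, and its part in the kidney difference was not tested.

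**Figure D2:**
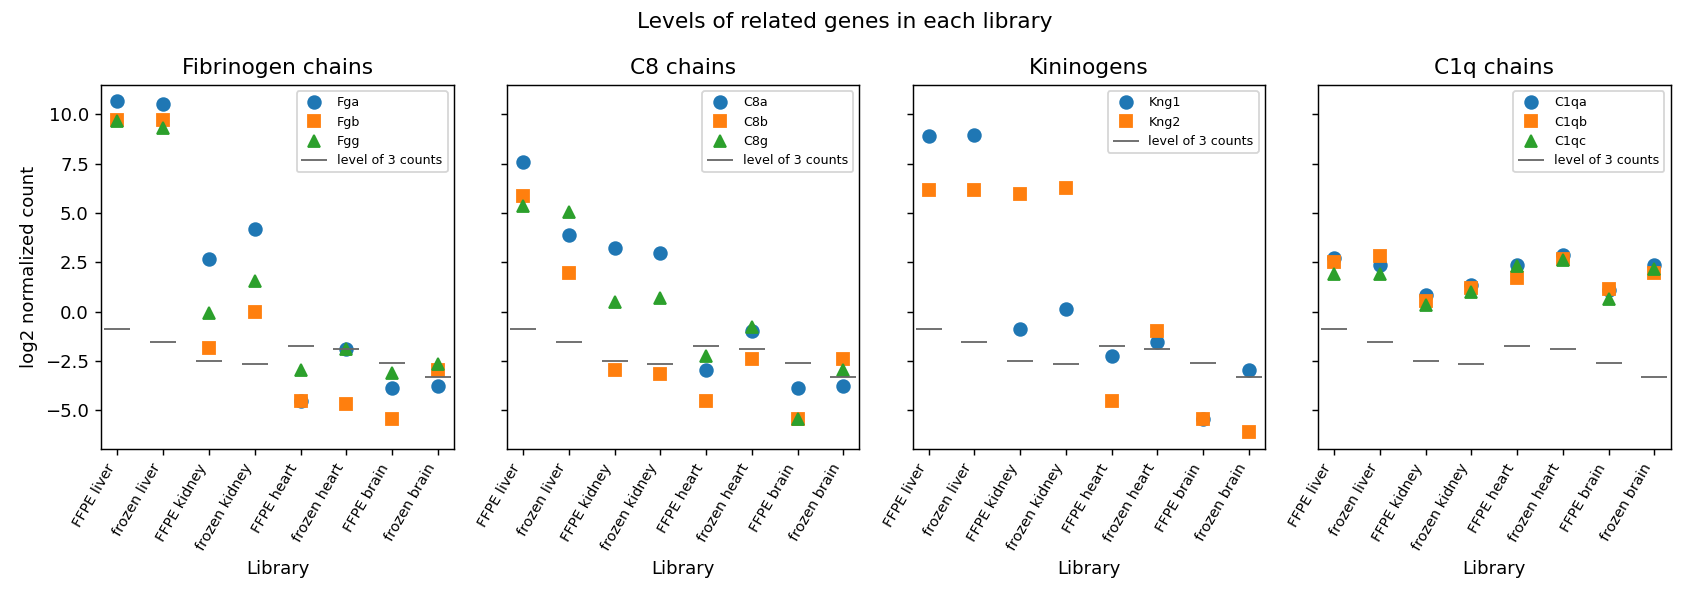
Log2 level (vertical axis, log2 normalized count) of the fibrinogen chains, the C8 chains, the kininogens and the C1q chains in the 8 libraries (horizontal axis), with a dash at the level of 3 counts. Between kidney and liver the level of Fgb differs more than that of Fga, C8b more than C8a, and Kng1 more than Kng2, while C1qa, C1qb and C1qc differ little between the organs.

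The kininogen genes parted as well. Kng1 had 10 and 24 counts in FFPE and frozen kidney, whereas Kng2, its neighbour, had 1225 and 1665, against 0 and 6 in heart and 0 and 0 in brain. Kng2 differed by 10.38 ± 0.78, the largest difference of the other pathway genes in kidney. Serpinf2 (the plasmin inhibitor, 9.23), Plau (urokinase, 7.53) and Cpn1 (the catalytic carboxypeptidase N subunit, 6.45) were also higher. In all, 12 of 27 other clotting and lysis genes were called higher and 4 lower in kidney, and 3 of 25 other complement genes higher and 1 lower. Of the 5 genes of the 43 that were lower in kidney, Vtn differed most, with 0 and 11 counts in FFPE and frozen kidney against 25 and 57 in heart and 125 and 249 in brain (-5.28 ± 0.83, adjusted p = 0.00127). C4b had a difference of -1.47 ± 0.33. C1qa, C1qb and C1qc had differences of -1.06, -0.997 and -1.27.

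**Figure D3:**
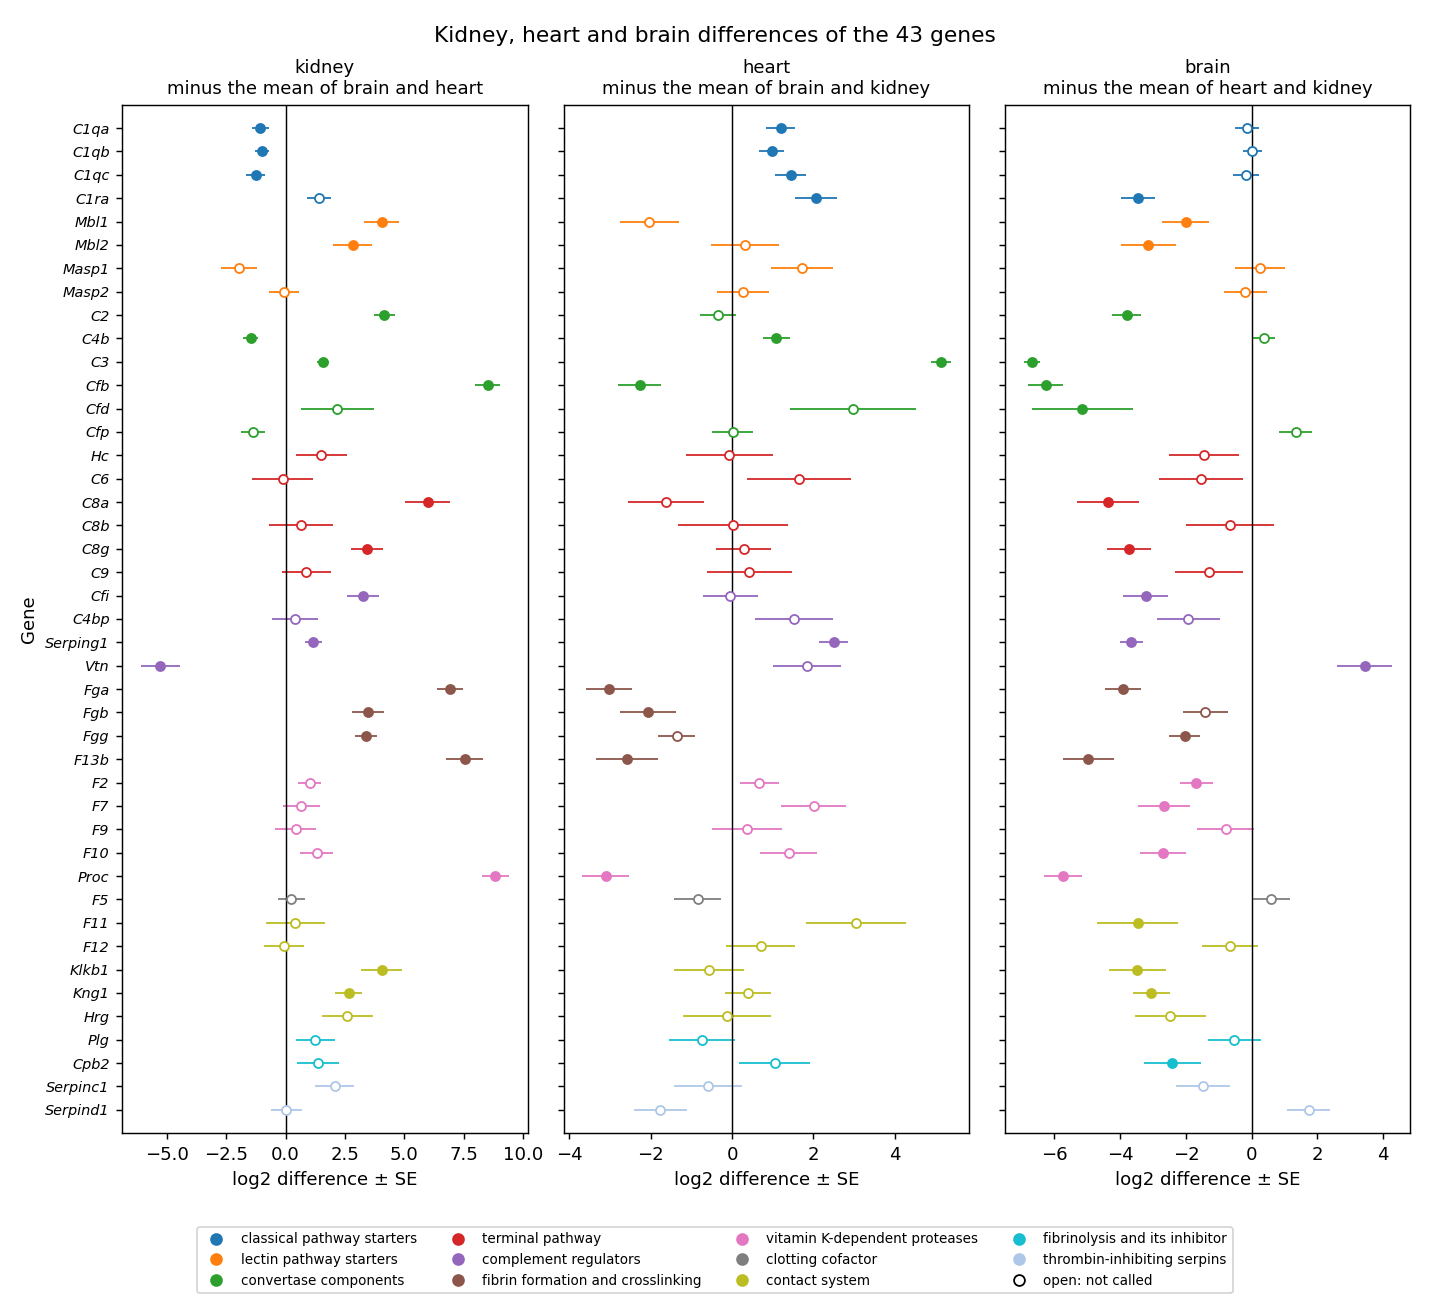
Fitted log2 difference with its SE (horizontal axis) of the 43 genes (rows, coloured by role) for kidney, heart and brain, each against the mean of the other 2 non-liver organs. Filled points were called by limma at adjusted p under 0.05. Proc, Cfb and F13b lie far right in kidney, C3 far right in heart, and Vtn alone is filled on the right in brain.

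In heart, 7 of the 43 genes were called higher than the mean of brain and kidney (14.9% of all genes tested) and 5 lower (19.6%). The median difference was 0.32, against -0.21 over all genes tested. C3 had 5.09 and 5.77 in FFPE and frozen heart, against -2.26 and -2.64 in FFPE and frozen brain and 3.30 and 2.82 in FFPE and frozen kidney (difference 5.12 ± 0.24, adjusted p = 4.14e-06). Both heart libraries lay above all 4 brain and kidney libraries. Serping1 had 3.67 and 3.91 in FFPE and frozen heart (difference 2.49 ± 0.36, adjusted p = 0.00107). C1ra (2.06), C1qc (1.44), C1qa (1.19), C4b (1.09) and C1qb (0.97) were the other higher genes. Of these, some overlapped another organ. FFPE heart was below frozen brain for C1qa (2.35 against 2.36) and C1qb (1.73 against 1.94), and frozen heart for C4b (1.45 against 1.52). For C1ra, FFPE heart was below frozen kidney (1.24 against 1.29). The C1qb call was lost when any 1 of the 6 heart, kidney or brain libraries was left out. C3, C1 inhibitor and C1 proteases are also known products of fibroblasts, and 8 of 9 fibroblast markers were higher in heart, with summed levels of 303 and 311 CPM in FFPE and frozen heart against 79.3 and 106.8 in kidney and 19.9 and 27.3 in brain. Macrophage markers summed to 42.6 and 62.8 CPM in FFPE and frozen heart, 24.2 and 29.8 in kidney and 20.8 and 29.1 in brain. Their part in these differences was not tested.

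Proc (-3.11), Fga (-3.02), F13b (-2.58), Cfb (-2.26) and Fgb (-2.07) were called lower in heart. Heart had at most 6 counts of each of these in either library, against 5 to 1253 in kidney and 0 to 5 in brain. The heart count of 12 became 6 without the FFPE kidney library and 4 without the FFPE heart library. Under total-count scaling the calls in heart were 2 higher and 12 lower, and the median of all genes was -1.27. With scaling by counts outside ribosomal genes, 3 were called higher and 8 lower. Of the other pathway genes, 13 of 25 complement genes were higher and 1 lower, with Colec11, a lectin of the lectin route, at 4.59. Of 27 other clotting and lysis genes, 8 were higher and 2 lower, and the higher ones included F13a1 (4.61), Fgl2 (a fibrinogen-like protein, 4.54), Tfpi (the tissue factor pathway inhibitor, 4.02) and Vwf (von Willebrand factor, 3.99).

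In brain, 1 of the 43 genes was called higher than the mean of heart and kidney (27.0% of all genes tested) and 22 lower (23.8%). The median difference was -2.01, against 0.07 over all genes tested. F11, Cfd and Mbl2 were at 0 counts in both brain libraries, and with these 3 at the level of 3 counts the median was -1.68. The gene that was higher was Vtn, with 2.55 and 2.87 in FFPE and frozen brain, against 1.13 and 2.15 in FFPE and frozen heart and -5.29 and -0.93 in FFPE and frozen kidney (difference 3.44 ± 0.83, adjusted p = 0.00808). Both brain libraries lay above all heart and kidney libraries, and the call was lost without FFPE brain (2.83). Vtn is known as a pericyte transcript in mouse brain, and markers of pericytes and smooth muscle summed to 34.7 and 26.6 CPM in FFPE and frozen brain, against 311 and 251.2 in heart and 96.4 and 79.7 in kidney. Their part in the Vtn level was not tested. C3 had the largest negative difference of the 43 in brain, with 4 and 5 counts in the FFPE and frozen library (difference -6.69 ± 0.24, adjusted p = 1.56e-06). Cfb (-6.26), Proc (-5.74) and F13b (-4.96) followed. FFPE and frozen brain had 0 and 5 counts of Cfb, 0 and 1 of Proc and 0 and 3 of F13b. FFPE and frozen heart also had few, with 3 and 6, 0 and 3, and 0 and 6. FFPE and frozen kidney had 1099 and 1253, 389 and 797, and 333 and 317, so the calls of these 3 genes rest on the kidney levels. C1qa, C1qb and C1qc were not called (-0.17 to 0.03), nor was C4b (0.39 ± 0.33). The count of 23 became 15 without FFPE brain, and with scaling by total gene counts 5 were called higher and 16 lower. Serpine2 (2.62), A2m (alpha-2-macroglobulin, 3.94) and F3 (tissue factor, 1.06) were the 3 of 27 other clotting and lysis genes called higher in brain, and 19 were lower. Of 25 other complement genes, 12 were lower and 0 higher (limma), and 17 had an unadjusted p under 0.05 in either direction.

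Between FFPE and frozen tissue, none of the 43 genes passed the test. With the 4 organs as blocks, limma called 0 of 43, while 7 had an unadjusted p under 0.05. Of all genes tested, 0.00673% were called and 18.6% had an unadjusted p under 0.05, so 7 of 43 was near the background. The smallest adjusted p was 0.213, for C1qb (-0.66 ± 0.24) and C4bp (-2.11 ± 0.79). Among the 7, Cpb2, Serpind1, F12 and Kng1 had differences of -1.86, -1.35, -1.67 and -1.08, and Cfp had 0.95 ± 0.41. The median of the 43 genes was -0.70, against -0.07 over all genes tested. Many of these genes had few counts outside liver. In FFPE kidney, heart and brain 7, 17 and 21 of the 43 genes were at 0, against 0, 3 and 4 in frozen kidney, heart and brain. The share of all genes tested at 0 in these libraries was not computed, so these numbers only describe the 43 genes. Counts outside ribosomal genes were 5039792 in FFPE kidney against 4610146 in frozen kidney and 3825381 in FFPE heart against 3941363 in frozen heart. FFPE brain had 4767353 against 8004550 in frozen brain. Depth was thus higher in FFPE than in frozen kidney and lower in FFPE heart and brain. Zeros were more frequent in FFPE tissue in each of these organs. The part of depth in the zeros was not tested. Neutrophil markers were also at 0 more often, with 7, 8 and 7 of 9 at 0 in FFPE kidney, heart and brain, against 4, 2 and 0 in frozen kidney, heart and brain.

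Within liver, where all 43 genes had at least 10 counts in a library, FFPE exceeded frozen for 24 genes and fell below it for 8, judged by the 95% counting interval of the log2 difference. Over all genes measured in liver the shares were 24.1% above and 17.9% below. An interval leaves out 0 more easily at higher counts, and the 43 genes were not matched to all genes by counts, here or in the other organs. The median was 0.23, against 0.05 over all genes measured. Each side is 1 library, so these intervals leave out any spread between animals or preparations. With scaling by counts outside ribosomal genes the median was -0.04.

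The 6 pore genes all had intervals above 0, and 5 of them by more than 1. C8b had 370 counts in FFPE liver against 38 in frozen liver (log2 difference 3.93, interval 3.46 to 4.47). C8a had 1213 against 149 (3.68, 3.44 to 3.94) and C6 had 329 against 61 (3.09, 2.70 to 3.51). Hc, with 2955 counts in FFPE liver against 1605, and C9, with 795 against 441, differed by 1.54 and 1.51. C8g, with 260 against 336, differed by 0.29 (0.05 to 0.53) after scaling for library size, and by 0.03 when scaled by counts outside ribosomal genes. Outside the pore genes, F11 (1.91), C1ra (1.38), Serping1 (1.01), C2 (1.001) and F7 (0.93) had the largest values.

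The fibrinogen chains had smaller values. Fga, Fgb and Fgg differed by 0.14, -0.03 and 0.32, with the intervals of Fga and Fgg above 0. Prothrombin gene F2 (-0.31), Cpb2 (-0.30), Hrg (-0.25), Cfb (-0.13), F5 (-0.12), Serpinc1 (-0.10), Kng1 (-0.08) and Cfd (0 counts against 10) had intervals below 0. Beside the pore genes, 7 of 7 genes known for higher expression in male mouse liver also had intervals above 0 (median 3.80), among them Mup20 with 933 counts in FFPE liver against 106 and Elovl3 with 860 against 107. The 9 genes known for higher expression in female liver had a median of 0.06, with 2 intervals above and 2 below 0. The sex chromosome genes went the other way from the male-biased genes. In liver the 4 Y-linked genes had a median of -0.53, with 0 intervals above and 2 below 0, and Xist differed by 10.33. Their part in the pore gene difference was not tested, and with 1 library a side, sex, any other difference between mice and preservation cannot be told apart.

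**Figure D4:**
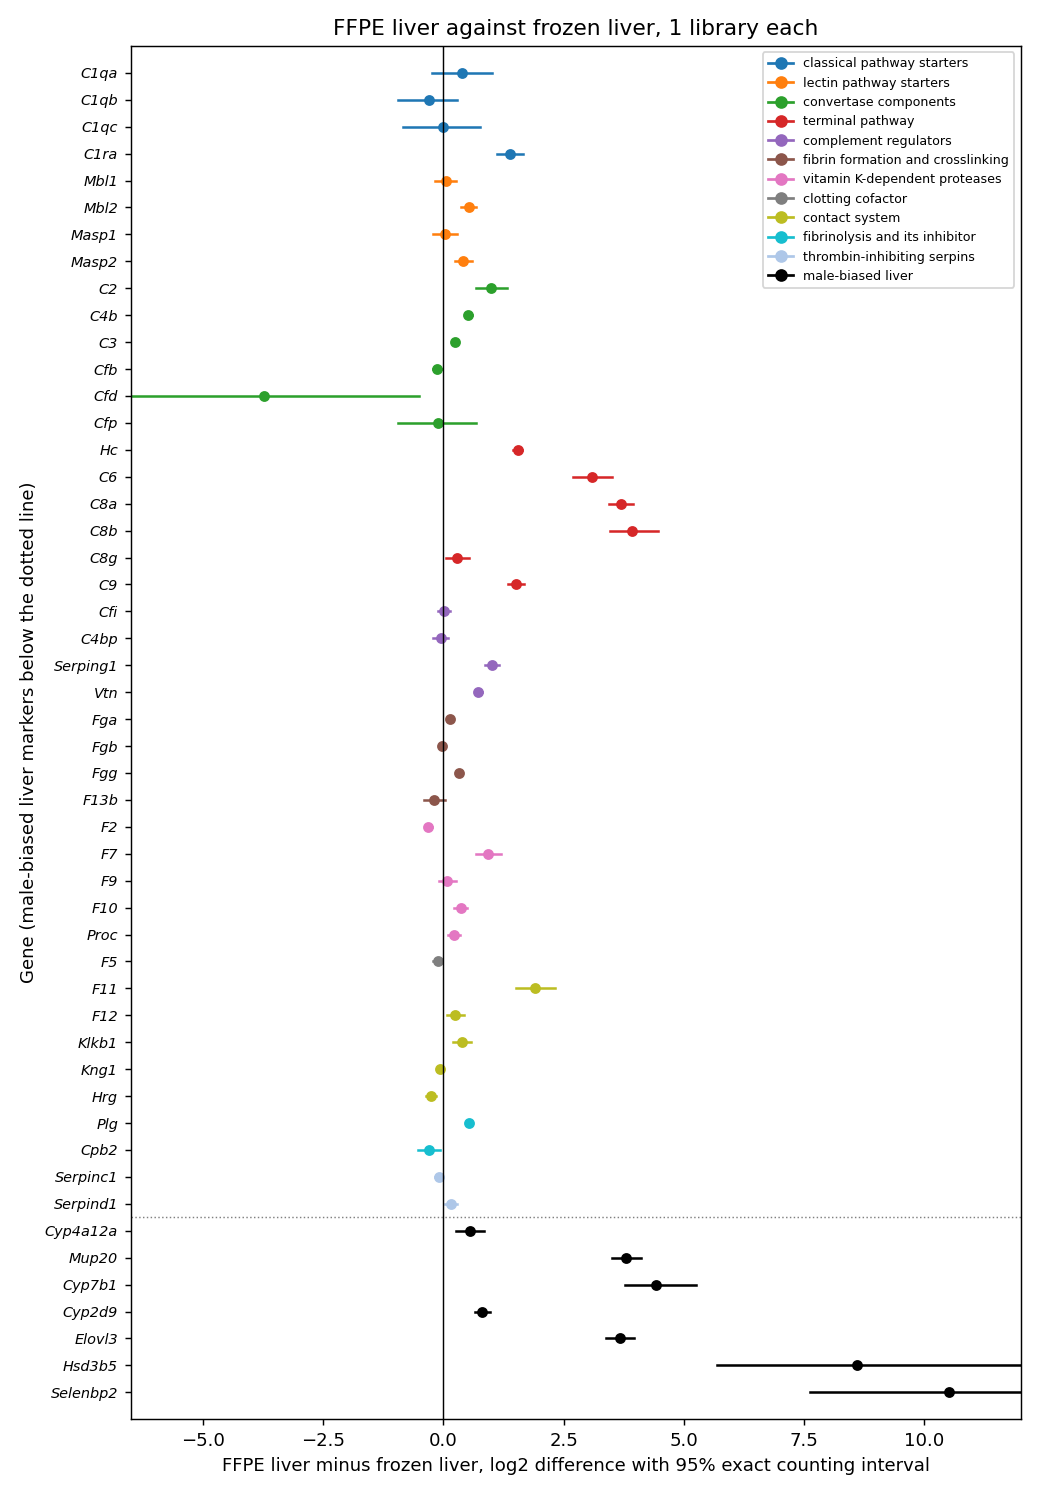
Log2 difference of FFPE liver minus frozen liver (horizontal axis) with its 95% exact counting interval for the 43 genes, coloured by role, and for 7 male-biased liver markers under the dotted line. C8b, C8a and C6 lie between 3.09 and 3.93, while the fibrinogen chains lie between -0.03 and 0.32. Intervals that reach the edge continue beyond it because 1 library had 0 counts.

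In kidney, of 31 genes measured, 5 had intervals above 0 and 11 below, and over all genes measured the shares were 23.8% and 17.5%. Fga, Fgb and Fgg had 123, 5 and 18 counts in FFPE kidney against 395, 21 and 65 in frozen kidney (log2 differences -1.51, -1.80 and -1.66). Alb had 48 against 300 counts. Proc (-0.87) and Serping1 (-0.84) were also below 0, whereas Cfb (-0.02) and C8a (0.22) had intervals that held 0. Cfd had 50 counts in FFPE kidney against 2 in frozen kidney (4.50, interval 2.88 to 7.90). The 6 adipocyte markers had few counts and did not move one way. Adipoq had 10 counts in FFPE kidney against 1 in frozen kidney, Adrb3 11 against 2, Plin1 9 against 2 and Retn 7 against 3, while Lep had 0 against 6 and Cidec 0 against 1. Their summed level was 1.90 CPM in FFPE kidney against 0.685 in frozen kidney, and their part in the Cfd value was not tested.

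In heart, of 14 genes measured, 2 had intervals above 0 (C4b and Cfp) and 7 below, against 24.7% and 19.1% of all genes measured. C3 had 395 counts in FFPE heart against 709 in frozen heart (-0.69, interval -0.87 to -0.51). In brain, of 11 genes measured, 1 (Cfp) was above 0 and 6 were below, against 21.3% and 29.3% of all genes measured. F5 had the widest gap there, with 25 counts in FFPE brain against 258 in frozen brain (-2.67, interval -3.35 to -2.10). Its values in the other organs were -0.12 in liver, 0.33 in kidney and 0.54 in heart, the last 2 with intervals that held 0. All 8 markers of the choroid plexus, the tissue that makes cerebrospinal fluid, were also lower in FFPE brain (median -3.13), among them Ttr with 427 counts against 12435 and Kl with 79 against 903. Ttr is also a hepatocyte marker. Their part in the F5 difference was not tested, and that marker list was drawn up after F5 and Ttr had been seen. C1qa, C1qb and C1qc had 46, 48 and 33 counts in FFPE brain against 175, 131 and 154 in frozen brain (-1.24, -0.77 and -1.53). The macrophage markers summed to 20.8 CPM in FFPE brain against 29.1 in frozen brain, and the microglia markers to 30.0 in both.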

How the data were processed

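m6A pulldown libraries of 4 mouse organs, FFPE and frozen, were analysed. Per the submitters' processing notes, HISAT2, featureCounts, limma and mm10 were used, with no versions, order or settings given. The values are the authors' deposited log2 normalized counts, 27179 genes in 8 columns. The values fit log2 CPM after 0.5 was added to each count, on library sizes whose scaling no source used here explains; 100.0% turned back into whole counts within 0.001. That the columns are m6A libraries comes from the table's name. A table for another mark, whose 8 columns matched no listed sample, was not used here.

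Genes with a log2 level above 0 in at least 2 libraries were tested (14864) with limma 3.58.1 (R 4.3.3), with terms for organ and preservation, eBayes with a trend, and Benjamini-Hochberg adjustment over all genes at 0.05. The fit was tested on simulated data. Within an organ, values are log2 differences with exact 95% counting intervals, for genes with at least 10 counts in a library. A floor is 3 counts per library. Alternatives were other scalings, filters, counts added, trend, weights and leaving out each library. Promoters and coordinates are from RefSeq (GRCm38.p6, the assembly of mm10). Every listed gene may be named, and of other pathway genes up to 8 called per comparison. The genes and lists were chosen with earlier results of these data known. Tables and figures were made in Python 3.11.15 (pandas 2.3.3, numpy 2.4.6, scipy 1.17.1, matplotlib 3.10.9).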

Additional observations from a re-analysis of the deposited data

Results flagged for a closer look

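For 5 genes the FFPE minus frozen log2 difference was at least 1 in size in opposite directions in different organs, with counting intervals that left out 0. Other genes, such as C3, Serping1, Fga and Fgg, had opposite signs with a smaller value on at least 1 side. With 1 library a side, these differences between organs were not tested.

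Cfd was 4.50 in kidney, -3.73 in liver and -2.03 in heart. It had 50 counts in FFPE kidney against 2 in frozen kidney, 0 in FFPE liver against 10 in frozen liver, and 4 in FFPE heart against 20 in frozen heart, so the liver value is set by the counts added, and the floor gives at least 2.10-fold lower in FFPE liver. Hc was 1.54 in liver, on 2955 against 1605 counts, but -2.86 in kidney (3 against 28 counts) and -4.89 in heart (0 against 16 counts, at least 4.78-fold lower in FFPE heart).

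C6 was 3.09 in liver and -3.74 in kidney, where it had 0 counts in FFPE against 7 in frozen tissue (at least 2.08-fold lower). C9 was 1.51 in liver and -3.53 in kidney, on 0 against 6 counts (at least 1.78-fold lower). F11 was 1.91 in liver and -4.22 in kidney, on 0 against 10 counts (at least 2.97-fold lower).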

How the results depend on the processing

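Of 43 genes, the number called in liver was 38 to 40 with a library left out, and 38 to 41 under the other settings. In kidney it was 12 to 22 with a library left out (21 with all), in heart 4 to 11 (12 with all) and in brain 15 to 23 (23 with all). FFPE against frozen gave 0 to 0 called with a library left out, 1 with scaling by total gene counts (Hc, lower) and 1 with voom weights (C8b, higher). Scaling by total gene counts reversed C1qb, to -0.065 in liver and -0.087 in heart. Counting each called gene under each alternative, 708 of 718 combinations kept direction and call in liver, 337 of 378 in kidney, 157 of 216 in heart and 349 of 413 in brain. No paired analysis was possible because each group is 1 column with no run number, which leaves no pairing by run or mouse; organ was a block in the FFPE against frozen fit. Without replicates, 3 residual degrees of freedom and counts near 0 outside liver limit the precision.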
